A study of Homo sapiens with 12 samples.

Results

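Mitochondrial ribosomal proteins are encoded in the nucleus, made by cytosolic ribosomes and imported into mitochondria, where they build the mitoribosome. The mitoribosome translates only the few proteins encoded in mitochondrial DNA, all of them parts of the respiratory chain or the ATP synthase. Its large subunit (MRPL genes) forms peptide bonds and its small subunit (MRPS genes) decodes the mRNA. Because the mRNAs of all these proteins are read in the cytosol, their place in a sucrose gradient reports how many cytosolic ribosomes they carry.

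The genes described here are those whose symbol is MRPL or MRPS followed by digits and at most 1 letter, with a mean of at least 1 FPKM (fragments scaled to transcript length and library size) over all 12 libraries. Of 76 such symbols 66 passed, out of 10731 genes with that mean in the whole table. By their place in the assembled mitoribosome, 46 belong to the large subunit and 19 to the small subunit. MRPS18A and MRPS30 carry small-subunit names but are large-subunit proteins and were counted there. MRPS36, now known as KGD4, is a part of 2-oxoglutarate dehydrogenase and was counted in neither subunit. The 10 genes below the minimum were MRPL32, MRPS35, MRPS10, MRPS18B, MRPL44, MRPS9, MRPL50, MRPS17, MRPL46 and MRPL1, at a mean of 0.967 FPKM for MRPL32 down to 0.135 FPKM for MRPL1.

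The cells were HEK293T, a human embryonic kidney line, treated with a PRMT1 inhibitor, a PRMT4 inhibitor or DMSO, the solvent. PRMT1 and PRMT4 are enzymes that methylate arginines in proteins; the compounds, doses and times are not given in the sources used here. Lysates were spun through sucrose gradients, and RNA was sequenced from the unfractionated input and from fractions whose mRNAs carry 1, 2, or 3 or more ribosomes. Each of the 12 combinations is 1 library. The 3 gradients, 1 per treatment, therefore serve as replicates for position in the gradient, while inhibitor differences have no replicate and no test. All gradient values rest on reading the table's 3 numbered fraction columns as 1, 2, and 3 or more ribosomes.

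The values were sparse. From the spacing of low FPKM values the libraries were estimated to hold 413000 to 568000 fragments each, and the median member had 2.55 estimated fragments per library. A median of under 10 estimated fragments was found for 54 of the 66 members, and 44 were listed at 0 in at least 1 library. The DMSO input stood apart: its summed FPKM was 201967, against 329897 to 425444 in the other libraries, and 30 members were listed at 0 there. Values are given below as listed FPKM, and differences on the log2(FPKM + 1) scale after centring each library on the genes tested, a scale that understates the change of low genes.

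A gene's listed value can also hold fragments of a gene on the other DNA strand, because the library kit keeps strand but the strand setting of the counting is not given. MT-ND6, the only mitochondrial mRNA from its strand, was listed at a mean of 1329 FPKM, against a median of 95.6 FPKM over the other 12 mitochondrially encoded mRNAs. Among the members 26 (39.4%, against 45.5% of all genes tested) share exonic bases with a gene on the other strand, and they had a median mean level of 12.6 FPKM, against 4.02 FPKM for the 40 members with none. Of the 8 highest members 6 have such a partner, and results are therefore also given without these genes. The part of opposite-strand fragments in any value was not tested.

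Promoters of these genes are shown because many of them share 2 short motifs. The windows below belong to members picked out by the tests that follow, MRPL52 against the input and the others in the gradient. MRPL23, also picked out in the gradient, had no matched promoter. RefSeq promoters (250 bases before to 50 after the transcription start, build GRCh38.p14) were matched for 57 of the 66 members and 8646 of the 10731 genes tested. CCGGAAG, the core bound by ETS factors such as GABP, was present on either strand in 27 members (47.4%), against 21.1% of all matched genes. AAGATGGC, the core of the YY1 motif, which often spans the start codon, was present in 16 members (28.1%), against 6.35%. At least 1 of the motifs was found in 63.2% of members, against 25.7% of all matched genes, and 7 members had both. GGGCGG, the core of the Sp1 box, was found in 57.9% of members, against 76.0%, and TATAAA in 5.26%, against 8.92%. A C at the start followed by 4 pyrimidines, the hallmark of cytosolic ribosomal protein genes, began 8.77% of member transcripts, against 7.73% of all. These are matches of letters in a window, not shown binding sites; both strands were searched for all but the start pattern, and neither main motif contains the other. In the 30-base windows, written 5′ to 3′ on the gene's own strand, capitals mark the motif (CTTCCGG is CCGGAAG on the other strand). In MRPL9, where neither main motif was found, capitals mark the first 5 transcribed bases.
MRPL51, chr12:6493348-6493377 (-), motif from position -104: cggcaggcggaCCGGAAGcactgaggcggg
MRPL51, chr12:6493223-6493252 (-), motif from position 22: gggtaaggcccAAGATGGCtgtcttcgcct
MRPS34, chr16:1773187-1773216 (-), motif from position -71: cctcttcctcgCTTCCGGccgcgaccgaac
MRPS24, chr7:43869480-43869509 (-), motif from position 20: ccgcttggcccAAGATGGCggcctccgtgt
MRPL20, chr1:1407319-1407348 (-), motif from position -44: cgaccttcgccCCGGAAGtatcgcaggggc
MRPL20, chr1:1407260-1407289 (-), motif from position 16: ccgacccgggcAAGATGGCagcggcgctgc
MRPL52, chr14:22829871-22829900 (+), motif from position -5: ggccacgcctaCTTCCGGctaccccggcta
MRPL9, chr1:151763477-151763506 (-), start: ctcaggtctcATTCTgtgcctgtgaacatg

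The first comparison asked where these mRNAs sit in the gradient, as the difference between 3 or more ribosomes and 1 ribosome. Of the 66 members, 5 rose toward 3 or more ribosomes and 1 fell. The 5 were MRPL51, MRPL9, MRPS34, MRPS24 and MRPL23, and the 1 that fell was MRPL20, by limma with the treatment as a block and Benjamini-Hochberg adjustment over all genes tested. Among all genes tested, 3.88% rose and 4.8% fell by the same rule.

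MRPL51 (ENSG00000111639), a mitochondria-specific protein of the large subunit, had the highest mean level of all members, 419 FPKM. Under the PRMT1 inhibitor its FPKM was 599 in the input, then 323 on 1, 446 on 2 and 712 on 3 or more ribosomes, and under the PRMT4 inhibitor 233, 169, 319 and 533 FPKM. In DMSO the same libraries gave 322, 179, 452 and 734 FPKM. In each gradient the level climbed with every added ribosome, and the lowest value with 3 or more ribosomes lay above the highest with 1 or 2. The difference was 1.75 ± 0.18 on the log2 scale (SE, n = 3 gradients), 3.37-fold, with an adjusted p of 0.000653 by limma. MRPL51 was called whichever gradient was left out. It shares 486 exonic bases with NCAPD2, a condensin subunit on the other strand. NCAPD2 was listed at 189 FPKM with 3 or more ribosomes and 337 FPKM with 1 under the PRMT1 inhibitor, at 141 and 232 FPKM under the PRMT4 inhibitor, and at 265 and 138 FPKM in DMSO. Its listed level thus fell toward 3 or more ribosomes in both inhibitor gradients and rose in DMSO. The part of NCAPD2 fragments in the MRPL51 values was not tested.

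MRPS34 (ENSG00000074071), a mitochondria-specific protein of the small subunit, has no opposite-strand exon and a mean of 77.7 FPKM. Under the PRMT1 inhibitor its listed levels were 135, 36.7, 45.97 and 120 FPKM from input to 3 or more ribosomes, and under the PRMT4 inhibitor 47.2, 53.8, 68.9 and 108 FPKM. In DMSO they were 84.9, 21.7, 94.9 and 115 FPKM. All 3 gradients gave 108 to 120 FPKM with 3 or more ribosomes and at most 53.8 FPKM with 1, so the groups did not overlap. The difference was 1.83 ± 0.36 (SE, n = 3 gradients) with an adjusted p of 0.0149 by limma.

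MRPS24, the small-subunit counterpart of a bacterial protein at the mRNA entry, was listed at 62.6, 53.5 and 46.5 FPKM with 3 or more ribosomes under the PRMT1 inhibitor, the PRMT4 inhibitor and DMSO, against 33.2, 3.65 and 7.79 FPKM with 1 ribosome. The groups did not overlap, and the difference was 2.44 ± 0.56 with an adjusted p of 0.0272 by limma. MRPL9, a large-subunit protein with a bacterial counterpart, was listed at 105 FPKM with 3 or more ribosomes and 10.1 FPKM with 1 under the PRMT1 inhibitor, at 45.0 and 10.9 FPKM under the PRMT4 inhibitor, and at 33.1 and 0 FPKM in DMSO. Its difference of 3.58 ± 0.59 had an adjusted p of 0.0068 by limma. MRPL9 shares 333 exonic bases with OAZ3, listed at a mean of 150 FPKM, which was also higher with 3 or more ribosomes than with 1: 252 and 119 FPKM under the PRMT1 inhibitor, 261 and 52.9 FPKM under the PRMT4 inhibitor, and 214 and 150 FPKM in DMSO. MRPL23, which lines the exit of the peptide tunnel, was listed at 36.9 FPKM with 3 or more ribosomes and 2.60 FPKM with 1 under the PRMT1 inhibitor, at 9.24 and 0 FPKM under the PRMT4 inhibitor, and at 28.7 and 12.9 FPKM in DMSO. The MRPL23 groups overlapped, since the PRMT4 inhibitor value with 3 or more ribosomes was below the DMSO value with 1, and its difference within gradients was 2.76 ± 0.65 with an adjusted p of 0.0303 by limma.

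MRPL20 (ENSG00000242485), a large-subunit protein whose bacterial counterpart binds early in assembly, was the one that fell. It was listed at 199, 248, 190 and 83.9 FPKM from input to 3 or more ribosomes under the PRMT1 inhibitor, and at 127, 171, 133 and 86.6 FPKM under the PRMT4 inhibitor. DMSO gave 94.8, 243, 143 and 102 FPKM. All 3 gradients peaked at 1 ribosome and lost level with each added ribosome, the reverse of MRPL51. The difference was -1.11 ± 0.20 with an adjusted p of 0.0101 by limma. Its partner on the other strand is the antisense gene MRPL20-AS1, with 139 shared exonic bases.

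Among these 6 calls only MRPL51 held whichever gradient was left out. MRPL9 held without the PRMT4 inhibitor gradient (adjusted p = 0.0415) and not without the PRMT1 inhibitor (0.114) or DMSO gradient (0.0512). Leaving out a gradient gave adjusted p of 0.0665 to 0.143 for MRPS34, 0.102 to 0.191 for MRPS24, 0.0569 to 0.255 for MRPL23 and 0.0634 to 0.122 for MRPL20, all by limma and all in the same direction. Without the treatment block MRPS24 (adjusted p = 0.0726 by limma) and MRPL23 (0.09) were not called, and with no minimum level MRPS34 (0.0532), MRPS24 (0.0769) and MRPL23 (0.0715) were not.

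**Figure D1:**
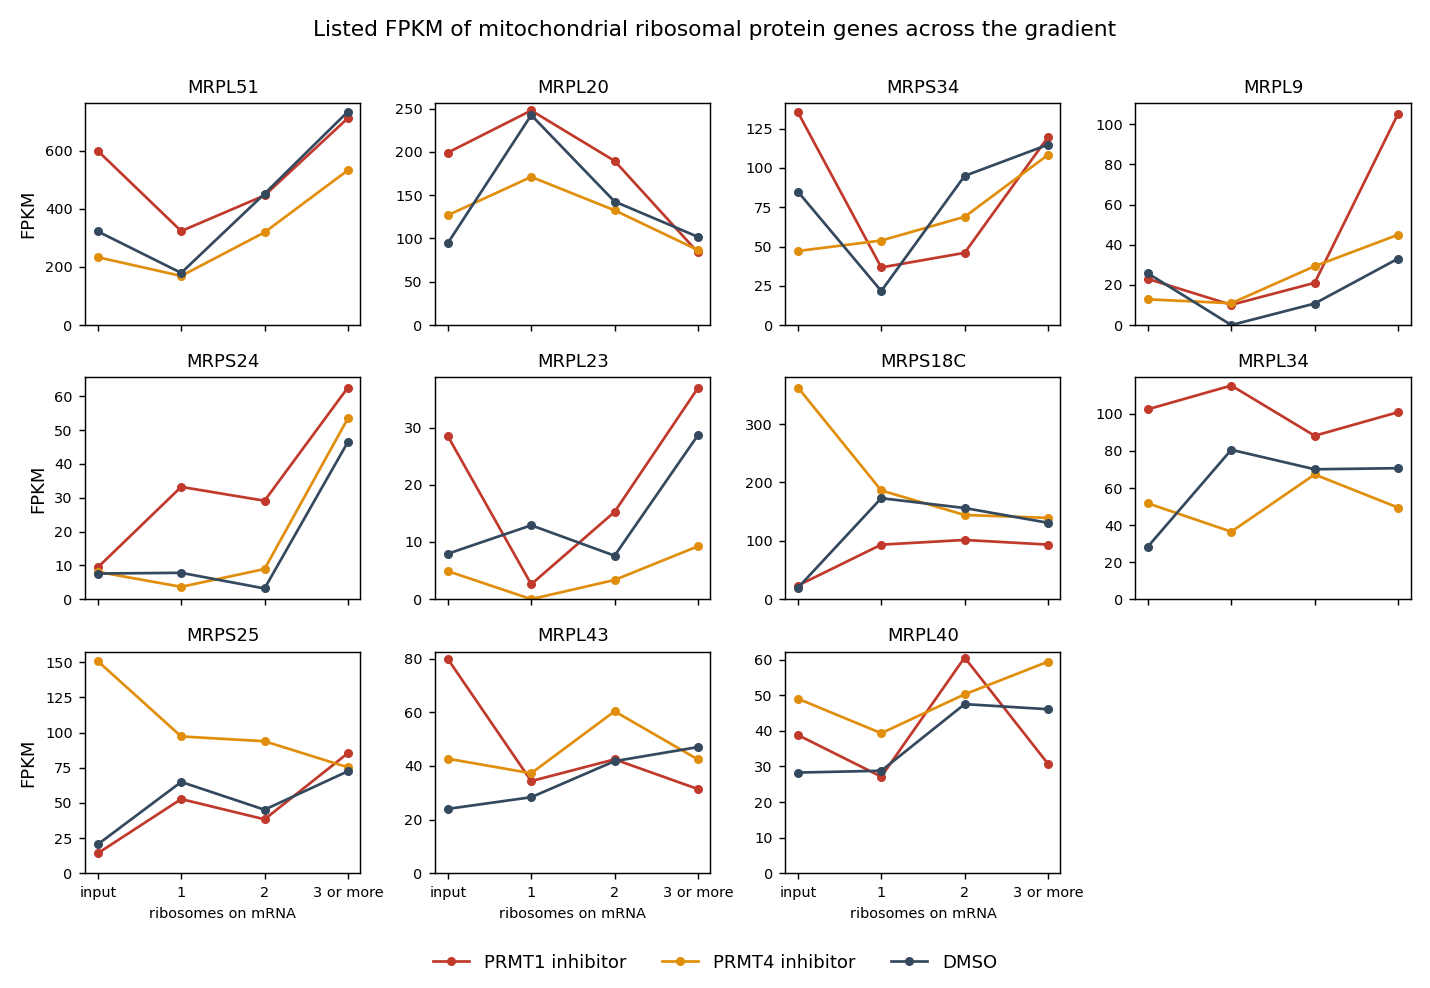
Listed FPKM (vertical axes, linear, from 0) of the 6 members called in the gradient and the 5 other members among the 8 highest, in the input and in fractions of 1, 2, and 3 or more ribosomes; each point is 1 library and each line 1 treatment. MRPL51 ends at 712, 533 and 734 FPKM with 3 or more ribosomes under the PRMT1 inhibitor, the PRMT4 inhibitor and DMSO, and MRPL20 at 83.9, 86.6 and 102 FPKM.

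The same lean was present over the whole list. The median member lay 0.58, 0.30 and 0.69 higher on the log2 scale with 3 or more ribosomes than with 1 under the PRMT1 inhibitor, the PRMT4 inhibitor and DMSO, against medians of 0.16, 0.06 and 0.10 over all genes tested. A value above 0 in all 3 gradients was found for 28 of 66 members (42.4%), against 23.8% of all genes tested. A value below 0 in all 3 was found for 6 members (9.09%), against 19.7%. By a rule of at least 1.5-fold the same way in all 3 gradients, 15 members were higher with 3 or more ribosomes (22.7%), where 9.19% of all genes were, and 5 were lower (7.58%), where 9.98% were. At an unadjusted p under 0.05 by limma 15 members were higher, where 11.8% of all genes were, and 4 lower, where 12.4% were.

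The medians of both subunits lay above 0 in each gradient, but under the PRMT4 inhibitor the small subunit lay close to all genes tested. The large-subunit medians were 0.79, 0.56 and 0.75 under the PRMT1 inhibitor, the PRMT4 inhibitor and DMSO, and those of the small subunit 0.53, 0.11 and 0.67. Over all genes tested they were 0.16, 0.06 and 0.10. With no minimum level the small-subunit median of the mean over the 3 gradients was 0.18 (24 genes), against 0.39 with it (19 genes). By the 1.5-fold rule 11 of 46 large-subunit members were higher (23.9%) and 4 lower (8.7%), and 4 of 19 small-subunit members were higher (21.1%) and 0 lower. Over all genes tested 9.19% were higher and 9.98% lower. Without the members that have an opposite-strand exon, the medians over the remaining 40 were 0.62, 0.52 and 0.66, and 9 were higher (22.5%) and 3 lower (7.5%) by the fold rule. The difference between subunits was not tested.

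Most of the lean lay in the last step. Between 3 or more and 2 ribosomes the medians over members were 0.71, 0.42 and 0.73 under the PRMT1 inhibitor, the PRMT4 inhibitor and DMSO, against 0.14, 0.09 and 0.12 over all genes, and between 2 ribosomes and 1 they were 0.08, -0.01 and -0.08, against 0.04, -0.04 and -0.01.

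**Figure D2:**
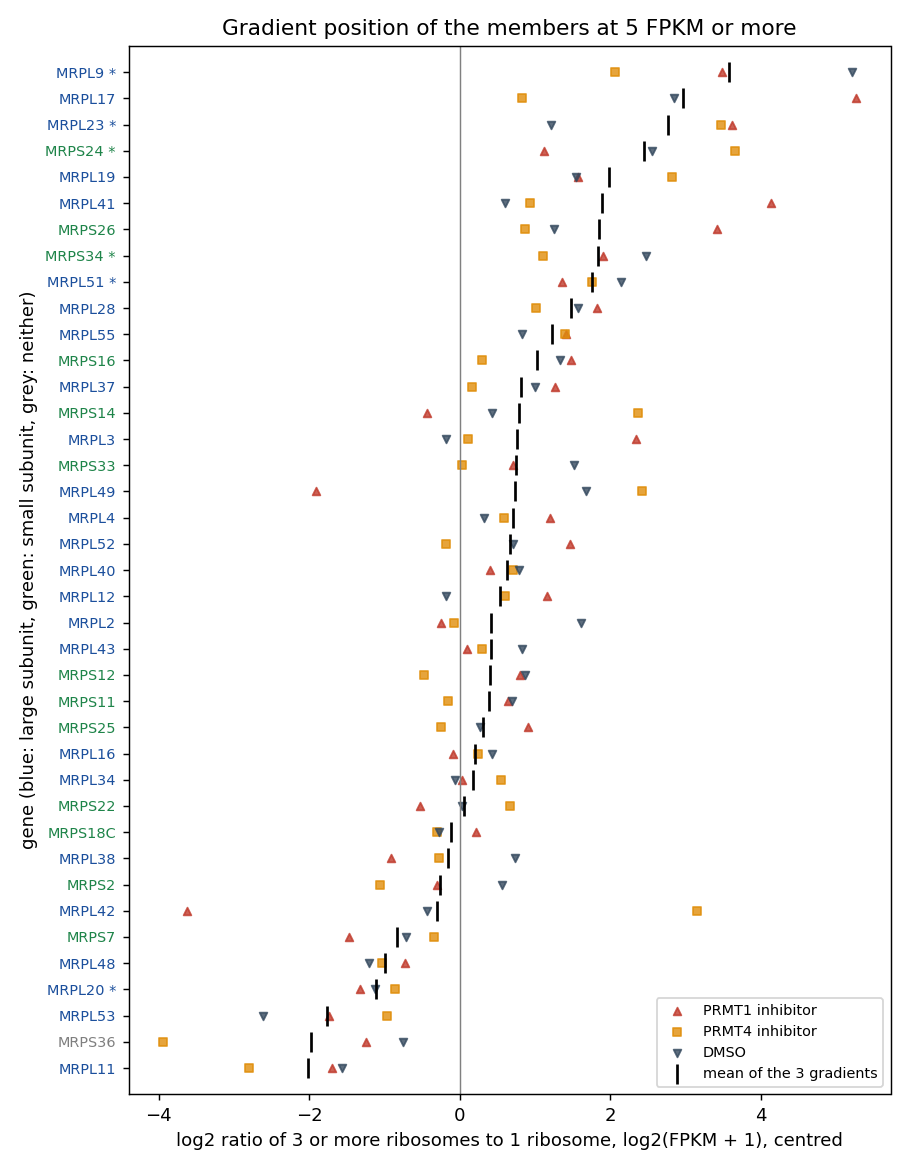
Gradient position of the 39 members with a mean of at least 5 FPKM: the horizontal axis is the centred log2 difference of 3 or more ribosomes minus 1 ribosome, coloured markers are the 3 gradients, black bars their mean, and an asterisk marks an adjusted p under 0.05 by limma. The means run from 3.58 for MRPL9 to -2.02 for MRPL11, and 11 of the 39 members meet the 1.5-fold rule upward and 5 downward.

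At a mean of at least 5 FPKM, the 6 members farthest toward 3 or more ribosomes were MRPL9, MRPL17, MRPL23, MRPS24, MRPL19 and MRPL41. MRPL17, with a bacterial counterpart, had a difference of 2.97 ± 0.89 (adjusted p = 0.0736 by limma) and was listed at 31.8, 12.4 and 12.5 FPKM with 3 or more ribosomes under the PRMT1 inhibitor, the PRMT4 inhibitor and DMSO, against 0, 7.25 and 1.04 FPKM with 1. Its mean of 5.5 FPKM came mostly from the libraries with 3 or more ribosomes, and it was listed at 0 in 6 of the 12 libraries. MRPL19 had a difference of 1.98 ± 0.76 (0.147) and the mitochondria-specific MRPL41 one of 1.89 ± 0.65 (0.115). The 6 farthest toward 1 ribosome were MRPL11, MRPS36, MRPL53, MRPL20, MRPL48 and MRPS7. MRPL11, at the base of the stalk where translation factors bind, had a difference of -2.02 ± 0.66 (adjusted p = 0.093 by limma) and was listed at 2.46 FPKM with 3 or more ribosomes and 12.1 FPKM with 1 under the PRMT1 inhibitor, at 0 and 6.54 FPKM under the PRMT4 inhibitor, and at 2.82 and 11.3 FPKM in DMSO. These groups did not overlap, though the value missed the threshold. The mitochondria-specific MRPL53 had -1.77 ± 0.53 (0.074) and MRPL48, of the same kind, -1.0 ± 0.40 (0.162). MRPS7, with a bacterial counterpart, had -0.84 ± 0.61 (0.447) and MRPS36 -1.98 ± 1.47 (0.462).

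The other proteins picked out by role did not pass the test. MRPS12, at the decoding centre of the small subunit, had 0.40 ± 0.62 (adjusted p = 0.742 by limma). MRPL12, the stalk protein, had 0.53 ± 0.55 (0.607), and MRPL58, a peptidyl-tRNA hydrolase built into the large subunit, 2.57 ± 0.85 (0.0994). Of the 3 MRPS18 paralogs, MRPS18C had -0.12 ± 0.20 (0.753) at a mean of 135 FPKM, MRPS18A had 1.07 ± 1.04 (0.582) at 1.76 FPKM, and MRPS18B was below the minimum at 0.501 FPKM. MRPS18A was listed at 0 in 8 of the 12 libraries and shares 604 exonic bases with RSPH9, a cilia gene listed at 222 to 541 FPKM. MRPS30 had 0.15 ± 0.73 (0.927).

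The members have short coding sequences, with a median of 579 bases (207 to 1449), against 1320 over all genes tested. Across the 66 members, Spearman's rho with the gradient difference was -0.10 for coding length and 0.01 for mean FPKM, and other genes with a coding length in the members' range had a median difference of 0.02 (5841 genes). That range reaches above the all-gene median of 1320 bases, so these genes were not matched to the members for short length. A part of coding length in the lean was not tested. Members are not independent of each other, since all share the same 9 libraries. The 3 gradients ranked the members only loosely alike: rho was 0.34 between the inhibitor gradients, 0.24 between the PRMT1 inhibitor and DMSO and 0.19 between the PRMT4 inhibitor and DMSO, against 0.30, 0.30 and 0.27 over all genes.

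Added up, the members took a larger share of each library with 3 or more ribosomes than with 1. Their summed FPKM was 0.423%, 0.322%, 0.375% and 0.544% of the library in the input and with 1, 2, and 3 or more ribosomes under the PRMT1 inhibitor. The PRMT4 inhibitor gave 0.435%, 0.325%, 0.362% and 0.494%, and DMSO 0.414%, 0.340%, 0.372% and 0.559%. The share with 3 or more ribosomes was thus 1.69, 1.52 and 1.64 times that with 1 under the PRMT1 inhibitor, the PRMT4 inhibitor and DMSO. MRPL51 alone carried much of this sum: without it, a sum chosen after the values were seen, the ratios were 1.46, 1.23 and 1.23 for the same treatments. Over the 40 members with no opposite-strand exon they were 2.22, 1.74 and 1.57. For the small subunit the ratios were 1.85, 1.21 and 1.53, and for the large subunit 1.64, 1.76 and 1.72 (1.27, 1.27 and 1.09 without MRPL51).

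**Figure D3:**
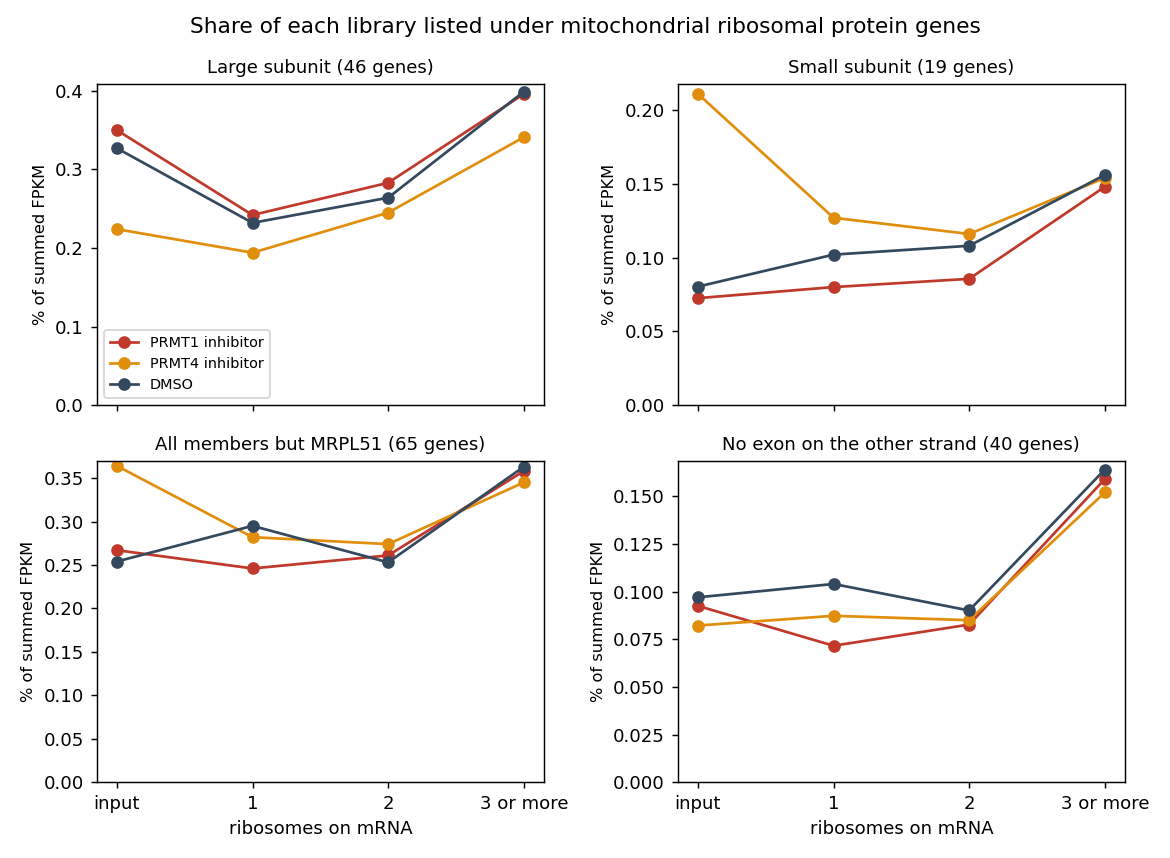
Percent of each library's summed FPKM (vertical axes, linear, from 0) listed under the 46 large-subunit genes, the 19 small-subunit genes, the 65 members other than MRPL51 and the 40 members with no exon of another gene on the other strand, from input to 3 or more ribosomes; each point is 1 library. In every panel the share with 3 or more ribosomes is above the share with 1 and 2, and the small-subunit input share under the PRMT4 inhibitor (0.211%) stands above those under the PRMT1 inhibitor (0.0725%) and DMSO (0.0803%).

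Set against the input instead, the lean toward 3 or more ribosomes was 0.59, 0.37 and 0.93 at the median member under the PRMT1 inhibitor, the PRMT4 inhibitor and DMSO. Over all genes tested it was 0.05, -0.08 and -0.09. In these inputs 36.4%, 34.8% and 45.5% of members were listed at 0, against 19.2%, 16.4% and 27.1% of all genes tested. The members' summed share with 3 or more ribosomes was 1.29, 1.14 and 1.35 times that in the input. Without MRPL51 the ratios were 1.34, 0.948 and 1.43, and for the small subunit 2.04, 0.728 and 1.94. MRPL52, a mitochondria-specific protein of the large subunit, rose, with a difference of 4.49 ± 0.63 on the log2(FPKM + 1) scale and an adjusted p of 0.0215 by limma. Of all genes tested 0.0839% rose and 0.345% fell by that rule. At an unadjusted p under 0.05 by limma 17 members were higher, where 6.09% of all genes were. No member fell (0 at an adjusted p under 0.05 and 3 at an unadjusted p under 0.05 by limma, where 7.78% of all genes did). MRPL52 was listed at 0 in all 3 inputs, against 22.9, 14.9 and 51.5 FPKM with 3 or more ribosomes under the PRMT1 inhibitor, the PRMT4 inhibitor and DMSO, and at 9.12, 18.6 and 34.0 FPKM with 1. With all inputs at 0 the size of this difference depends on the pseudocount: a pseudocount of 5 gave 2.54 and an adjusted p of 0.052 by limma. Its call was also lost without the PRMT1 inhibitor gradient (adjusted p = 0.225 by limma) and without the DMSO gradient (0.439). By the 1.5-fold rule 14 members were higher with 3 or more ribosomes than in the input (4.79% of all genes were) and 3 were lower, MRPL20, MRPL53 and MRPL48 (6.04% of all genes were). The 14 include MRPL30, MRPL13, MRPL14 and MRPL17, whose levels lay mostly with 3 or more ribosomes. Of these, MRPL30, MRPL13 and MRPL14 passed the minimum of 1 FPKM only through those libraries.

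The inhibitor comparisons asked whether these mRNAs were more or less abundant on ribosomes after treatment; the 2 inhibitors share the DMSO libraries. At least a 1.5-fold difference the same way in all 3 ribosome fractions was met upward by MRPL9 under the PRMT1 inhibitor (1 of 66, where 2.54% of all genes met it) and downward by MRPL55, MRPS14 and MRPL45 (3 of 66, where 2.67% did). Under the PRMT4 inhibitor MRPL19 met it upward (1 of 66, where 2.8% of all genes did) and MRPL52, MRPL23, MRPL42, MRPL11, MRPL39, MRPL45 and MRPL30 met it downward (7 of 66, or 10.6%, where 3.04% did). All 7 are large-subunit genes, and 0 of the 19 small-subunit genes met the rule in either direction under the PRMT4 inhibitor. The difference between subunits was not tested. MRPL45 and MRPL30 reached the minimum of 1 FPKM only with their DMSO values counted, so their being lower than DMSO was partly set by that filter. MRPL45 is counted under both inhibitors against the same DMSO libraries. MRPL9, MRPL19, MRPL23, MRPL11 and MRPS14 share exons with a gene on the other strand. The median over members was -0.12 under the PRMT1 inhibitor and -0.04 under the PRMT4 inhibitor.

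MRPL9 was listed at 10.1, 21.02 and 105 FPKM with 1, 2, and 3 or more ribosomes under the PRMT1 inhibitor and at 10.9, 29.3 and 45.0 FPKM under the PRMT4 inhibitor, against 0, 10.7 and 33.1 FPKM in DMSO. Each inhibitor value lay above its DMSO value, and the means over the fractions were 1.98 and 1.74 higher on the log2 scale. In the input it was the other way: 23.0 FPKM under the PRMT1 inhibitor and 12.8 FPKM under the PRMT4 inhibitor, against 25.7 FPKM in DMSO. MRPL19 was listed at 10.2, 3.50 and 27.5 FPKM under the PRMT1 inhibitor and 1.95, 9.36 and 18.2 FPKM under the PRMT4 inhibitor, against 0, 2.96 and 1.68 FPKM in DMSO.

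MRPL52 was listed at 18.6, 1.71 and 14.9 FPKM on 1, 2, and 3 or more ribosomes under the PRMT4 inhibitor, against 34.0, 7.34 and 51.5 FPKM in DMSO. MRPL42, a mitochondria-specific protein of the large subunit, was listed at 0, 7.93 and 7.23 FPKM under the PRMT4 inhibitor, against 18.2, 15.1 and 12.2 FPKM in DMSO. MRPL23 gave 0, 3.35 and 9.24 FPKM under the PRMT4 inhibitor, against 12.9, 7.6 and 28.7 FPKM in DMSO, and MRPL11 gave 6.54, 1.20 and 0 FPKM, against 11.3, 5.32 and 2.82 FPKM. The remaining 3 were near the floor: MRPL39 was listed at 0 in all fractions under the PRMT4 inhibitor, against 12.6, 2.35 and 4.98 FPKM in DMSO, MRPL45, which sits at the tunnel exit and binds the inner membrane, had a mean of 1.67 FPKM, and MRPL30 one of 1.13 FPKM. MRPL45 was also listed at 0 on all ribosome fractions under the PRMT1 inhibitor, against 2.70, 5.02 and 5.32 FPKM in DMSO. MRPL55 was listed at 6.26, 12.8 and 15.5 FPKM under the PRMT1 inhibitor, against 17.7, 19.7 and 29.8 FPKM in DMSO, and MRPS14 at 11.3, 2.70 and 6.81 FPKM, against 19.8, 7.21 and 24.9 FPKM. Each of these values rests on a handful of fragments in 1 library.

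At a mean of at least 5 FPKM, the other members with the highest ribosome mean against DMSO were MRPL19 (2.33), MRPS24 (1.72) and MRPS12 (1.05) under the PRMT1 inhibitor and MRPS12 (0.84) and MRPS2 (0.63) under the PRMT4 inhibitor. The lowest were MRPL42 (-1.95), MRPL49 (-1.72), MRPS22 (-1.31) and MRPL3 (-1.25) under the PRMT1 inhibitor and MRPL3 (-2.77), MRPL23 (-2.16), MRPL42 (-1.98), MRPL52 (-1.44) and MRPL11 (-1.44) under the PRMT4 inhibitor. None of the 4 members with the most estimated fragments met the rule under either inhibitor. Their differences from DMSO with 1, 2, and 3 or more ribosomes were 0.75, -0.03 and -0.03 with the PRMT1 inhibitor, and -0.13, -0.57 and -0.50 with the PRMT4 inhibitor for MRPL51, and for MRPL20 -0.06, 0.40 and -0.26 with the PRMT1 inhibitor, and -0.54, -0.18 and -0.27 with the PRMT4 inhibitor. For MRPS34 they were 0.64, -1.04 and 0.07 with the PRMT1 inhibitor, and 1.24, -0.53 and -0.12 with the PRMT4 inhibitor. MRPS18C had -0.98, -0.62 and -0.47 under the PRMT1 inhibitor, lower in all fractions, and 0.07, -0.18 and 0.05 with the PRMT4 inhibitor. The members' summed share with 3 or more ribosomes was 0.974 times that of DMSO under the PRMT1 inhibitor and 0.885 times under the PRMT4 inhibitor.

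The shift of gradient position under an inhibitor was near the background. By at least 2-fold, 16 members moved toward 3 or more ribosomes under the PRMT1 inhibitor (23.7% of all genes did) and 11 toward 1 ribosome (22.8%). The PRMT4 inhibitor gave 14 (23.5%) and 17 (23.1%), and the medians were 0.04 and -0.05.

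In the PRMT4 inhibitor input the 2 subunits gave different counts. Of the 19 small-subunit genes 11 were at least 2-fold higher than in the DMSO input and 2 lower, and of the 46 large-subunit genes 6 were higher and 9 lower, where 25.3% of all genes tested were higher and 22.2% lower. The 11 were MRPS18C, MRPS25, MRPS26, MRPS16, MRPS14, MRPS11, MRPS22, MRPS33, MRPS6, MRPS21 and MRPS5. Leaving out the genes listed at 0 in both inputs, whose difference comes from centring alone, the medians were 1.55 for 17 small-subunit genes and -0.03 for 30 large-subunit genes, against 0.03 over all genes tested with the same left out. With no opposite-strand exon, 5 of 9 small-subunit genes and 4 of 30 large-subunit genes were higher. All 5, MRPS26, MRPS33, MRPS6, MRPS21 and MRPS5, were listed at 0 in the DMSO input. In the PRMT4 inhibitor input they were listed at 2.99 (MRPS21) to 13.4 FPKM (MRPS33). The other members of the 11 have an opposite-strand partner. Of the 4 large-subunit genes, MRPL42, MRPL45 and MRPS30 were also at 0 in the DMSO input. Of 17 mitochondrial translation factors 9 were also higher and 3 lower (median 1.11). The difference between subunits was not tested.

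MRPS18C, a small-subunit protein with a bacterial counterpart, was listed at 363 FPKM in the PRMT4 inhibitor input, against 19.4 FPKM in the DMSO input. The PRMT1 inhibitor input gave 23.4 FPKM, and the ribosome fractions lay at 139 to 186 FPKM under the PRMT4 inhibitor, against 131 to 173 FPKM in DMSO. ABRAXAS1, a DNA repair gene that shares 1956 exonic bases with it on the other strand, moved with it: 70.7 FPKM in the PRMT4 inhibitor input, against 6.23 FPKM in the DMSO input. MRPS25 was listed at 151 FPKM, against 20.6 FPKM, and its partner NR2C2, a nuclear receptor, at 467 FPKM, against 28 FPKM. MRPS22, MRPS33 and MRPS26 were listed at 20.6, 13.4 and 10.0 FPKM in the PRMT4 inhibitor input and at 0 in the DMSO input. The summed small-subunit share of the input was 2.63 times that of DMSO, but 0.606 times over the 9 genes with no opposite-strand exon, among which the highest, MRPS34, was listed at 47.2 FPKM, against 84.9 FPKM in DMSO. The lowest at 5 FPKM or more were MRPS36 (-4.56), MRPS12 (-3.43), MRPL11 (-2.49) and MRPL4 (-1.87).

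With the PRMT1 inhibitor input in place of DMSO, a comparison chosen after these values were seen, 8 of 19 small-subunit genes were higher and 3 lower under the PRMT4 inhibitor, and 7 of 46 large-subunit genes were higher and 12 lower, where 27.1% and 27.0% of all genes were. The medians without genes at 0 in both were -0.06 for the small and -0.55 for the large subunit, against -0.09 over all genes.

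**Figure D4:**
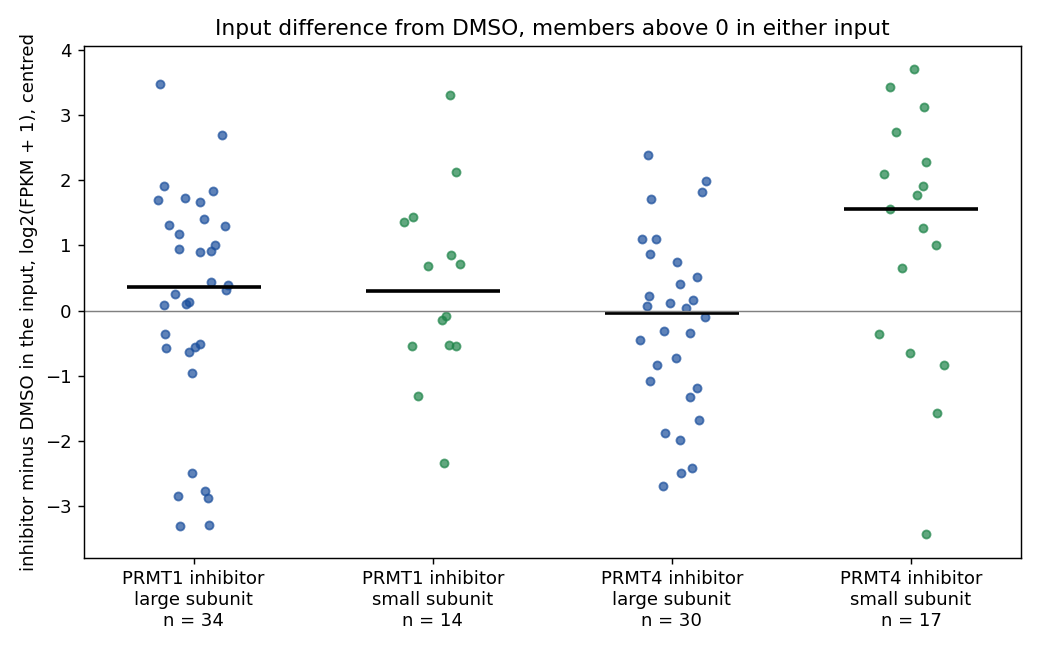
Input difference from DMSO on the centred log2(FPKM + 1) scale, each point 1 gene listed above 0 in at least 1 of the 2 inputs, black lines the medians, jittered sideways only. Under the PRMT4 inhibitor the small-subunit median is 1.55 (17 genes) and the large-subunit median -0.03 (30 genes); under the PRMT1 inhibitor they are 0.30 (14 genes) and 0.36 (34 genes).

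Under the PRMT1 inhibitor 16 members were at least 2-fold higher in the input than in DMSO (20.5% of all genes were) and 9 lower (18.3%), and 17 were at 0 in both. The highest at 5 FPKM or more were MRPS26 (3.31), MRPS22 (2.12), MRPL3 (1.70) and MRPS16 (1.44), and the lowest MRPS36 (-2.97), MRPL28 (-2.88), MRPL19 (-2.84) and MRPS14 (-2.33). MRPS26 was at 16.4 FPKM, against 0 in the DMSO input. Each input difference from DMSO rests on the DMSO input described above, which stood apart in summed FPKM and in zeros. Its library total of 511000 estimated fragments lay within the range of the others. Over the genes tested, however, it held 113096 estimated fragments, against 183327 to 262736 in the other libraries. Over the members it held 301, against 413 to 742.

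The 4 other members of the 8 highest that have not yet been given in full did not pass the gradient test. MRPL34 was listed at 103, 115, 88.2 and 101 FPKM from input to 3 or more ribosomes under the PRMT1 inhibitor, at 51.7, 36.4, 67.3 and 49.5 FPKM under the PRMT4 inhibitor and at 28.4, 80.6, 70.1 and 70.7 FPKM in DMSO. MRPS25 gave 14.2, 52.7, 38.3 and 85.3 FPKM under the PRMT1 inhibitor, 151, 97.2, 93.8 and 75.3 FPKM under the PRMT4 inhibitor and in DMSO 20.6, 64.9, 45.2 and 72.5 FPKM. MRPL43 gave 79.8, 34.3, 42.4 and 31.4 FPKM under the PRMT1 inhibitor, 42.7, 37.3, 60.3 and 42.4 FPKM under the PRMT4 inhibitor and 24.0, 28.3, 41.8 and 47.0 FPKM in DMSO. For MRPL40, the one of these with no opposite-strand partner, the levels were 38.8, 27.1, 60.6 and 30.7 FPKM under the PRMT1 inhibitor, 49.0, 39.3, 50.2 and 59.4 FPKM under the PRMT4 inhibitor and in DMSO 28.3, 28.8, 47.5 and 46.1 FPKM. Their gradient differences were 0.17 to 0.62, with adjusted p of 0.242 to 0.747 by limma.

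The rest of the mitochondrial translation machinery was read beside the members. Of the 5 mitoribosome proteins with other names, AURKAIP1 rose toward 3 or more ribosomes (2.01 ± 0.32, adjusted p = 0.00621 by limma), while GADD45GIP1 had -0.52 ± 0.20 (0.151) and DAP3 0.52 ± 0.29 (0.311). Of 22 assembly factors 2 rose, RCC1L (0.74 ± 0.18, 0.0333) and MALSU1 (0.98 ± 0.22, 0.0277), and 0 fell (3 or more against 1 ribosome, 2 at an unadjusted p under 0.05). Of 17 translation factors 2 fell, the release factor MTRF1L (-1.26 ± 0.17, 0.00272) and the RNA-binding protein SLIRP (-1.77 ± 0.42, 0.0335), and 0 rose (3 at an unadjusted p under 0.05). Of 11 aminoacyl-tRNA synthetases and amidotransferase subunits, GATC rose (1.19 ± 0.12, 0.000693), and 0 fell at either threshold. MALSU1, MTRF1L, SLIRP and GATC share exons with a gene on the other strand, and AURKAIP1 and RCC1L do not. Over all genes tested 3.88% rose and 4.8% fell at an adjusted p under 0.05 by limma. The list medians were 0.31, 0.27, 0.28 and 0.50 in that order, against 0.64 for the members and 0.03 for all genes. Values above 0 in all 3 gradients were found for 2 of 5, 10 of 22 (45.5%), 4 of 17 (23.5%) and 6 of 11 (54.5%). The members had 42.4% and all genes 23.8%, so by this count the assembly factors and synthetases were not below the members. Values below 0 in all 3 were found for 1, 3, 5 and 0, against 9.09% of members and 19.7% of all genes. Of the 13 mRNAs encoded in mitochondria, read by the mitoribosome itself, 7 fell and 0 rose at either threshold, with a median of -2.77.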

How the data were processed

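The authors deposited 1 table of FPKM values per gene for 12 libraries, 1 per combination of treatment and fraction. Per the submitters' processing notes, cutadapt 1.18, STAR 2.5.3a and RSEM were used with GRCh37; the strand setting is not given in the sources used here. Values were taken as log2(FPKM + 1) after a mean minimum of 1 FPKM, and each library was centred on the median over the 10731 genes tested. limma 3.58.1 (R 4.3.3), with treatment as a block, tested 3 or more ribosomes against 1 ribosome on 9 libraries and against input on all 12, with Benjamini-Hochberg adjustment over all genes; the code was tested on simulated data. Nothing says the gradients came from separate cultures. The SEs and p-values rest on the scatter over all fractions fitted, which limma draws toward that of other genes of similar level. The 3 gradients are 3 different treatments, so treatment effects on position are part of that scatter. Inhibitor differences, with 1 library a side, were counted by fold only. GENCODE 29, which is on GRCh38, gave names, coding lengths and opposite-strand overlaps, but no coordinates. Members named in the text are those called or met by a fold rule, the 8 highest, the most extreme at 5 FPKM or more, and a few chosen by role. The members and gene lists were chosen with earlier results of these data known.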

Additional observations from a re-analysis of the deposited data

How the results depend on the processing

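The median lean of the members toward 3 or more ribosomes stayed above 0 (0.39 to 0.75) under every pseudocount, minimum, scaling and left-out gradient tried, and without opposite-strand members, but it was -0.04 for 2 ribosomes against 1. For gradient position, members called higher by limma numbered 1 to 2 when a gradient was left out, 2 with no minimum or without opposite-strand members, and 0 for 3 or more against 2 ribosomes or for 2 against 1. Members called lower numbered 0 for 3 or more against 2 ribosomes, for 2 against 1, with any gradient left out and without opposite-strand members. With no minimum 1 was called lower. Members 1.5-fold higher numbered 9 with a pseudocount of 5 and 9 without opposite-strand members, 1 for 2 ribosomes against 1 and 18 to 23 with a gradient left out (the highest without the PRMT4 inhibitor gradient, where a rule over fewer gradients is easier to meet). Those lower numbered 3 without opposite-strand members, 1 for 3 or more against 2, 0 for 2 against 1 and 7 with any gradient left out. Against input, limma gave 0 to 2 higher with a gradient left out and 0 with a pseudocount of 5; the fold rule gave 8 higher and 0 lower with that pseudocount, 7 higher at a minimum of 5 FPKM, 1 lower with no minimum, no centring or upper-quartile scaling, and 16 to 25 higher and 4 to 7 lower with a gradient left out.

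On ribosomes the fold rule, with 1 fraction left out, gave 4 to 6 higher and 7 to 11 lower under the PRMT1 inhibitor, and 4 to 7 higher and 8 to 13 lower under the PRMT4 inhibitor. The PRMT1 inhibitor median was 0.04 without the fraction of 1 ribosome, -0.28 without that of 2 and 0.07 without that of 3 or more. A pseudocount of 5 gave 0 higher and 4 lower under the PRMT4 inhibitor, and a minimum of 5 FPKM 4 lower. Without opposite-strand members 0 were higher under the PRMT1 inhibitor and 0 under the PRMT4 inhibitor. The PRMT4 inhibitor median was 0.01 with no centring, also for the large subunit (0.01), and the small-subunit median was 0.03 then and 0.12 at 5 FPKM.

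In the inputs, a pseudocount of 5 gave 9 higher under the PRMT1 inhibitor and 11 higher and 5 lower under the PRMT4 inhibitor; a minimum of 5 FPKM gave 7 and 10 higher. With no centring 26 were higher under the PRMT1 inhibitor and 7 lower under the PRMT4 inhibitor. The medians were then 0.29 and 0.05, against -0.52 and -0.68 with centring, so their sign depended on it. For the PRMT1 inhibitor they were 0.37 for the large and 0.28 for the small subunit, against -0.43 and -0.53 with centring. Over all genes tested, the 2 inhibitors gave 0.68 and 0.57 with no centring, against -0.13 and -0.16 with it. The DMSO input alone carries an offset of -0.77. Without opposite-strand members 5 were lower under the PRMT1 inhibitor, and 9 higher and 5 lower under the PRMT4 inhibitor. The small-subunit median under the PRMT4 inhibitor stayed between 0.66 and 2.0 over the scalings, pseudocount and minimums tried. Against the PRMT1 inhibitor input, a setting chosen after seeing the data, it was 0.08, as was the large-subunit median. That is the value that genes at 0 in both inputs take from centring. Without those genes the medians were -0.06 for the small and -0.55 for the large subunit. For the shift, a minimum of 5 FPKM gave 6 higher and 6 lower under the PRMT1 inhibitor, against 6 and 11 with the PRMT4 inhibitor, and without opposite-strand members 7 and 10 were lower. The PRMT1 inhibitor shift median was -0.08 at that minimum and -0.07 with no centring; that of the PRMT4 inhibitor was 0.08 without opposite-strand members, and its large-subunit median -0.04 with a pseudocount of 5 and -0.01 with upper-quartile scaling. The causes were not tested. The limma fits pair the fractions of each gradient through the treatment block; without it 5 members were called higher and 1 lower in gradient position, and MRPS24 and MRPL23 lost their calls. Depth limits most members to differences of several-fold.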
